A study of Mus musculus with 16 samples.

Results

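The opioid and tachykinin neuropeptide genes and their receptors were examined in mouse striatum. The 10 genes are the opioid peptide precursors Penk, Pdyn and Pnoc, the tachykinin precursor Tac1, the opioid receptors Oprm1, Oprd1, Oprk1 and Oprl1, and the tachykinin receptors Tacr1 and Tacr3. Every probe set annotated with exactly 1 of these symbols was taken, whatever its signal, which gave 19 of the 34945 probe sets with a single gene symbol and 10 of 18193 genes. Penk, Pdyn, Pnoc, Oprd1 and Tacr1 each had 1 probe set, Tac1 and Oprk1 had 2, Oprl1 and Tacr3 had 3, and Oprm1 had 4. RNA of whole striatum was hybridised to 16 Affymetrix Mouse Genome 430 2.0 arrays, 4 biological replicates for each of 4 genotypes on a B6xCBA strain background. The genotypes were wild type, DREAM+/- (heterozygous for a deletion of DREAM, whose gene is Kcnip3), R6/2, and R6/2 x DREAM+/-. R6/2 mice carry exon 1 of the human huntingtin gene with an expanded CAG repeat under the human promoter, in all tissues, and model an early and severe form of Huntington's disease; the mice without it have no huntingtin transgene. The deletion of DREAM is present in every cell and is not restricted to neurons. Age, sex and pooling of animals are not given in the labels used here, so p-values measure the spread between these samples. The labels call the material striatal neurons, but the arrays also read markers of glia at high levels, such as Mbp (myelin) between 14.00 and 14.19 and Aqp4 (astrocytes) between 10.27 and 10.71 on the log2 scale. In such bulk tissue, fewer cells of a type and less RNA per cell cannot be told apart.

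Medium spiny projection neurons make up most of the striatum and are divided by output. Neurons of the indirect pathway make enkephalins from Penk, while neurons of the direct pathway make dynorphins from Pdyn and substance P from Tac1. Enkephalins act mainly on the delta and mu receptors (Oprd1, Oprm1), dynorphins on the kappa receptor (Oprk1) and nociceptin, made from Pnoc, on Oprl1. Substance P acts on Tacr1, and neurokinin B, made from Tac2, on Tacr3. DREAM is a calcium-binding protein that binds a short DNA element in the prodynorphin gene and represses its transcription.

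Values were deposited on the log2 scale and run from 3.34 to 14.71 over all probe sets. A brightness floor of 5.94, the 40th percentile of probe-set means, is used only to describe dim probe sets. Of the 19 probe sets, 13 had a mean at or above it. The 6 below were all 4 of Oprm1, the single one of Oprd1 and the dimmer one of Tac1, so those values lie near the array's background. Levels of different probe sets are not comparable with each other. Kcnip3 averaged 9.67 ± 0.24 (log2, SD over 4 arrays) with intact DREAM and no transgene, and 7.77 ± 0.04 in DREAM+/-. With the transgene the means were 9.11 ± 0.09 for R6/2 alone and 7.56 ± 0.12 for the cross. Replicates of a genotype correlated at 0.991 to 0.998 over probe sets. Tests of a difference were made with limma, two-sided, with Benjamini-Hochberg adjustment over all 34945 probe sets, and a probe set passed at an adjusted p under 0.05. R6/2 replicate 1 read 6.49 for the female-specific transcript Xist, where the other 15 arrays read 11.04 to 12.16. R6/2 x DREAM+/- replicate 3 lay at -15.9 on the third principal component, where the others lay between -4.87 and 10.6; leaving out both arrays is among the alternatives.

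The promoters of Pdyn and Tac1 are shown because both genes are expressed in direct pathway neurons and the genotypes separated them. RefSeq (GRCm38.p6) gave promoter windows for 7 of the 10 genes, with 12 windows in all. Each line below gives the 250 bases before the annotated start, 5′ to 3′ on the gene's own strand. Capitals mark GTCA or its reverse complement TGAC, the core of the DREAM response element, searched on both strands. The printed Pdyn window is chr2:129699939-129700188 on the minus strand and that of Tac1 is chr6:7554811-7555060 on the plus strand. Pdyn had a second window, chr2:129698659-129698908, which is not printed. Bases outside the windows were not searched.
Pdyn: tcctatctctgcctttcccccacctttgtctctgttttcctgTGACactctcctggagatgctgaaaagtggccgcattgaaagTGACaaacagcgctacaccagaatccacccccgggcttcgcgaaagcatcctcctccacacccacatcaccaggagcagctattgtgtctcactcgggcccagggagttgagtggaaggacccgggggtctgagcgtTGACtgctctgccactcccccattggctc
Tac1: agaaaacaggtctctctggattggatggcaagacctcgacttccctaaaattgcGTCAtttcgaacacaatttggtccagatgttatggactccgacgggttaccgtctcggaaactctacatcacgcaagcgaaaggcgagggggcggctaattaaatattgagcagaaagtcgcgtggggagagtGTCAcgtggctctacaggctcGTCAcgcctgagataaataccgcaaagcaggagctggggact
Both printed windows and the second Pdyn window held 3 matches each, and 80.2% of 32851 promoter windows of the same length held at least 1. The median over those windows was 2 matches, and 11.4% held 4 or more. The match is therefore a description of these letters and not a site. CGTCA, which contains GTCA and is part of the cyclic AMP response element TGACGTCA, occurred 2 times in the Tac1 window and was not found in that of Pdyn; 17.8% of all windows held it. None of the 12 windows held TGACGTCA, which occurs in 1.55% of all windows.

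The first comparison asked how the R6/2 transgene alters these genes in mice without the DREAM deletion. Kcnip3 itself fell by 0.555 in R6/2 against wild type (limma adjusted p = 0.000775). Penk and Pdyn fell, Oprk1 fell on its brighter probe set, and Oprl1 rose on all 3 of its probe sets. In all, 6 of the 19 probe sets passed, 3 higher and 3 lower, or 31.6%. Over all probe sets percent called was 13.2, with 6.74 higher and 6.42 lower. The groups did not overlap for 8 of the 19 (42.1%), against 17.0% of all probe sets, and 7 of 19 had an unadjusted p under 0.05, as did 26.5% of all probe sets. The median difference was -0.07 for the 19 and 0.03 for all probe sets (log2). On the DREAM+/- background, R6/2 x DREAM+/- against DREAM+/-, 5 of 19 passed, 1 higher and 4 lower (26.3%), and percent called over all probe sets was 6.93, with 2.91 higher and 4.01 lower. Groups there did not overlap for 4 of 19 (21.1%), against 12.8% of all. The probe sets that passed there were those of Penk, Pdyn, Pnoc, Oprk1 (1446394_at) and Oprl1 (1426204_a_at).

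Penk, which encodes the enkephalin precursor and is a marker of indirect pathway neurons, had the largest loss in R6/2 among the opioid and tachykinin genes. In wild type its replicates 1 to 4 read 13.22, 13.31, 13.21 and 13.30 (log2), and in DREAM+/- 13.16, 13.22, 13.28 and 13.09. In R6/2 they read 12.41, 12.26, 12.34 and 12.44, and in R6/2 x DREAM+/- 12.23, 12.43, 12.56 and 12.13. Every array with the transgene was below every array without it. Penk fell by 0.90 in R6/2 against wild type (95% interval -1.06 to -0.73, limma adjusted p = 2.03e-06), to 53.7% of the wild-type level. It fell by 0.85 on the DREAM+/- background, to 55.5% (adjusted p = 8.94e-06).

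Pdyn encodes prodynorphin, the precursor of the kappa receptor ligands. Its wild-type replicates read 8.51, 8.53, 8.52 and 8.45 (log2), and the DREAM+/- replicates 8.02, 8.23, 8.41 and 8.03. R6/2 arrays read 7.88, 7.63, 7.85 and 7.96, and R6/2 x DREAM+/- arrays 7.18, 7.54, 7.68 and 7.56. The genotypes followed 1 order, wild type, DREAM+/-, R6/2 and R6/2 x DREAM+/-, and of neighbouring groups only the last 2 overlapped. Pdyn fell by 0.67 in R6/2 against wild type (95% interval -0.89 to -0.45, limma adjusted p = 0.000336), to 62.7%. On the DREAM+/- background it fell by 0.68, to 62.3% (adjusted p = 0.000595).

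**Figure D1:**
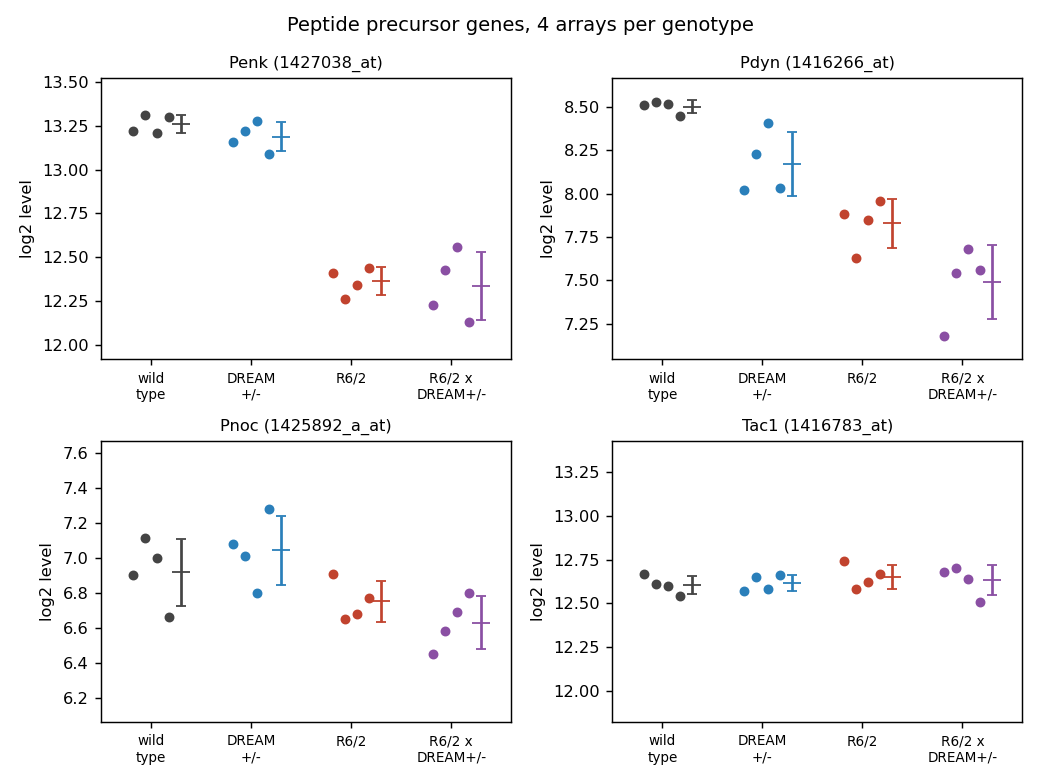
Log2 level of the probe sets of Penk, Pdyn and Pnoc and of the brighter Tac1 probe set in the 4 genotypes; points are arrays (n = 4 per genotype) and the bar mark is the mean ± SD. Penk separates arrays with the R6/2 transgene from those without it, Pdyn descends over the 4 genotypes from 8.50 to 7.49, and Tac1 stays between 12.51 and 12.74 on all arrays.

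Pnoc, which encodes the precursor of nociceptin, changed less. Wild-type arrays read 6.90, 7.11, 7.0 and 6.66, DREAM+/- arrays 7.08, 7.01, 6.80 and 7.28, R6/2 arrays 6.91, 6.65, 6.68 and 6.77, and R6/2 x DREAM+/- arrays 6.45, 6.58, 6.69 and 6.80. The R6/2 and wild-type arrays overlapped, and the difference of -0.17 did not pass (limma adjusted p = 0.358). On the DREAM+/- background Pnoc fell by 0.41 (adjusted p = 0.0274), although the highest array of the one group and the lowest of the other both read 6.80. That call did not hold in 8 of 27 alternatives, with adjusted p up to 0.0937, among them those without R6/2 x DREAM+/- replicate 1 or 2 or DREAM+/- replicate 1, 2 or 4 (-0.42 to -0.33).

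Tac1, the substance P and neurokinin A precursor, did not pass in either R6/2 comparison. Its bright probe set, 1416783_at, read 12.67, 12.61, 12.60 and 12.54 in wild type, 12.57, 12.65, 12.58 and 12.66 in DREAM+/-, 12.74, 12.58, 12.62 and 12.67 in R6/2, and 12.68, 12.70, 12.64 and 12.51 in R6/2 x DREAM+/-. All 4 genotypes overlapped. The difference was 0.05 in R6/2 against wild type (95% interval -0.07 to 0.16, limma adjusted p = 0.635) and 0.02 on the DREAM+/- background (-0.10 to 0.13, adjusted p = 0.916). In R6/2 against wild type the interval therefore spans 95.4% to 112% of the wild-type level. The dimmer probe set, 1431883_at, read 4.94 to 5.31, below the floor, and its correlation with the bright one over the 16 arrays was -0.08.

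Differences between the peptide genes within an array were tested directly, since values of both genes come from the same RNA. The pairs were chosen with earlier results of these data known. The p-values of such differences, here and below, are therefore descriptions. The log2 difference Penk less Tac1, set to 0 at the wild-type mean, lay between -0.11 and 0.11 in wild type, -0.23 and 0.05 in DREAM+/-, -0.98 and -0.88 in R6/2, and -1.1 and -0.73 in R6/2 x DREAM+/-. Arrays with and without the transgene did not overlap. Averaged over DREAM genotype, Penk dropped by 0.91 more than Tac1 in R6/2 (exact two-sided permutation over 4900 assignments, p = 0.000408, the smallest they can give; adjusted p = 0.00122 over 12 such tests). Pdyn dropped by 0.71 more than Tac1 (exact permutation p = 0.000408, adjusted p = 0.00122); both are textbook markers of the same neurons. The Penk loss exceeded the Pdyn loss by 0.20 (exact permutation p = 0.00735, adjusted p = 0.011).

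**Figure D2:**
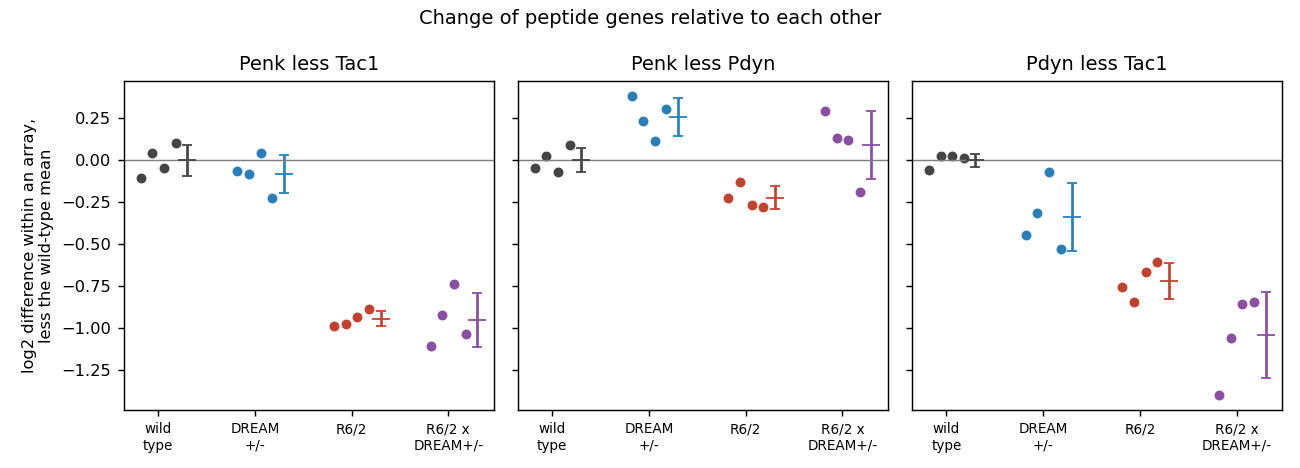
Log2 differences between peptide genes within each array (Penk less Tac1, Penk less Pdyn and Pdyn less Tac1), set to 0 at the wild-type mean; points are arrays, the bar mark is the mean ± SD, n = 4 per genotype. Penk less Tac1 divides the arrays by the R6/2 transgene, and Pdyn less Tac1 also steps down with DREAM+/-, to -1.04 on average in R6/2 x DREAM+/-.

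The peptide genes were also set against a mean of 18 medium spiny neuron markers, of which 14 were lower in R6/2 against wild type and 17 were lower in the averaged R6/2 effect (median of -0.55 log2, against 0.02 over all genes). Percent called over the brightest probe set per gene was 15.7 and 23.3 in those comparisons. Penk fell further than that mean, by 0.31 (exact permutation p = 0.000408, adjusted p = 0.00122). For Pdyn the difference from the mean was -0.11 (exact permutation p = 0.109, adjusted p = 0.146) and did not pass. Tac1 lay 0.60 higher relative to the mean in R6/2 mice (exact permutation p = 0.000408, adjusted p = 0.00122). That value restates the fall of the markers beside the small change of Tac1. Markers of the 2 output pathways were counted in R6/2 against wild type. Of 6 direct pathway markers 2 were lower, 1 was higher and 3 did not pass. Drd1, the dopamine receptor of direct pathway neurons, fell by 0.76 (limma adjusted p = 2.89e-05) and Slc35d3 by 0.39 (adjusted p = 0.0144), while Isl1, a transcription factor of these neurons, rose by 0.29 (adjusted p = 0.00634). Of 6 indirect pathway markers only 3 could be read, and all 3 were lower, among them Drd2, the dopamine receptor of those neurons, by 0.78 (adjusted p = 0.00604). On the DREAM+/- background 2 of these 3 were lower, while Grik3 differed by 0.08 (limma adjusted p = 0.679). Of the 6 direct pathway markers 3 were lower there and none was higher. Percent called over the brightest probe set per gene was 8.34 on that background.

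Oprk1, which encodes the kappa receptor, was read by 2 probe sets that differed. On 1446394_at, wild-type arrays read 7.32, 7.48, 7.47 and 7.47 (log2), DREAM+/- arrays 7.77, 7.90, 7.78 and 7.64, R6/2 arrays 6.95, 6.80, 7.10 and 7.17, and R6/2 x DREAM+/- arrays 6.92, 7.28, 7.15 and 6.83. All R6/2 arrays were below all wild-type arrays, and all R6/2 x DREAM+/- arrays were below all DREAM+/- arrays. This probe set fell by 0.43 in R6/2 against wild type (95% interval -0.63 to -0.23, limma adjusted p = 0.00657) and by 0.73 on the DREAM+/- background (adjusted p = 0.000186). On 1451813_at, wild-type arrays read 6.85, 6.84, 7.75 and 6.72, DREAM+/- arrays 7.36, 7.79, 7.86 and 7.68, R6/2 arrays 6.91, 6.68, 6.95 and 6.89, and R6/2 x DREAM+/- arrays 7.48, 7.42, 7.32 and 7.28. Wild-type replicate 3 stood with the DREAM+/- arrays here but not on the first probe set. The R6/2 differences on this probe set were -0.18 (adjusted p = 0.541) and -0.30 (adjusted p = 0.369) and did not pass. The 2 probe sets correlated at 0.53 over the 16 arrays.

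Oprl1, the nociceptin receptor, rose in R6/2 on all 3 probe sets, 2 of which (1450486_a_at and 1422099_a_at) were designed from the same transcript. On 1426204_a_at, wild-type arrays read 8.96, 8.96, 8.89 and 8.77 and R6/2 arrays 9.21, 9.07, 9.32 and 9.12, with no overlap. DREAM+/- arrays read 8.93, 8.95, 9.0 and 9.0 and R6/2 x DREAM+/- arrays 9.24, 9.22, 9.17 and 9.13, also with no overlap. The difference was 0.29 in R6/2 against wild type (95% interval 0.16 to 0.41, limma adjusted p = 0.00418), or 122% of the wild-type level, and 0.22 on the DREAM+/- background (adjusted p = 0.0335). The second call was lost in 8 of 27 alternatives, with adjusted p up to 0.0962, among them those without R6/2 x DREAM+/- replicate 1 or 2 or any single DREAM+/- array (0.20 to 0.23).

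The other Oprl1 probe sets moved in R6/2 and not detectably on the DREAM+/- background. On 1450486_a_at, wild-type arrays read 8.39, 8.42, 8.47 and 8.55 and R6/2 arrays 8.68, 8.89, 8.99 and 8.93, a rise of 0.42 (limma adjusted p = 0.000875) with no overlap. DREAM+/- arrays read 8.51, 8.66, 8.71 and 8.56 and R6/2 x DREAM+/- arrays 8.69, 8.77, 8.60 and 8.82, which overlapped, a difference of 0.11 (adjusted p = 0.455). The difference between these 2 effects, -0.31, did not pass (adjusted p = 0.732), so they were not shown to differ. On 1422099_a_at, wild-type arrays read 7.72, 7.88, 8.06 and 7.87, DREAM+/- arrays 7.98, 8.25, 8.12 and 8.02, R6/2 arrays 8.28, 8.29, 8.35 and 8.37, and R6/2 x DREAM+/- arrays 8.31, 8.33, 7.73 and 8.41. The R6/2 arrays were all above the wild-type arrays, a rise of 0.44 (adjusted p = 0.0182) that did not pass without wild-type replicate 1 (0.39, adjusted p = 0.0611), and the difference on the DREAM+/- background was 0.10 (adjusted p = 0.716), where R6/2 x DREAM+/- replicate 3 was the single low array; without it the rise was 0.26 (adjusted p = 0.0472).

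**Figure D3:**
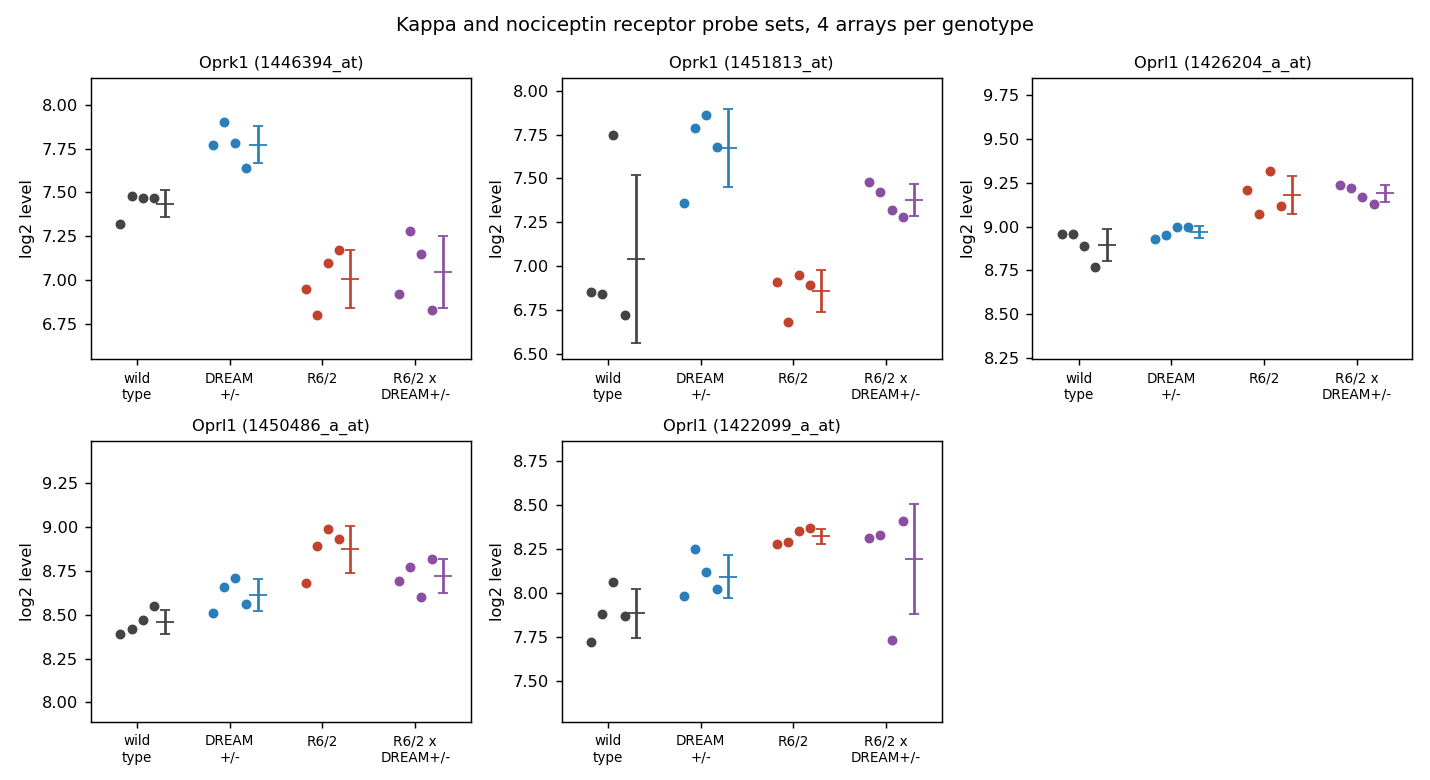
Log2 level of the probe sets of the opioid receptors Oprk1 and Oprl1 in the 4 genotypes; points are arrays (n = 4), the bar mark is the mean ± SD, and the dotted line, where in range, is the brightness floor of 5.94. Oprk1 1446394_at is lower with the R6/2 transgene in both DREAM genotypes, Oprk1 1451813_at is higher in the DREAM+/- groups with 1 wild-type array at 7.75, and the Oprl1 probe sets are higher in R6/2.

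The mu and delta receptors lay below the brightness floor on every array. All 4 Oprm1 probe sets lay between 4.00 and 5.63 over the 16 arrays, and that of Oprd1 between 5.0 and 5.5. One Oprm1 probe set, 1451709_at, read 5.11 to 5.30 in wild type and 5.33 to 5.45 in R6/2, with no overlap, but its difference of 0.21 did not pass (limma adjusted p = 0.103), and the other 3 and Oprd1 had no call in R6/2 against wild type either. A value this near to the array's background does not show that the receptors are absent.

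Neither tachykinin receptor passed in the main limma fit. Tacr1, the substance P receptor, read 7.30, 7.38, 7.25 and 7.23 in wild type, 7.23, 7.15, 7.27 and 7.17 in DREAM+/-, 7.12, 7.12, 7.12 and 7.20 in R6/2, and 7.09, 7.24, 6.88 and 7.29 in R6/2 x DREAM+/-. R6/2 arrays were all below wild-type arrays, yet the difference of -0.15 did not pass (limma adjusted p = 0.201). Tacr3, the neurokinin B receptor, was read by 3 probe sets that spanned 7.41 to 8.02, 7.30 to 7.95 and 5.87 to 6.53. Its 1437029_at averaged -0.21 in the R6/2 effect over both DREAM genotypes (adjusted p = 0.0652). That effect passed without both arrays that stood apart (-0.29, adjusted p = 0.00164) and without R6/2 replicate 1 alone (-0.27, adjusted p = 0.00445). It also passed with array weights and with the replicate number as a block. Leaving out R6/2 x DREAM+/- replicate 3, DREAM+/- replicate 4 or wild-type replicate 4 gave a call too (adjusted p up to 0.0461). In R6/2 against wild type this probe set passed without R6/2 replicate 1 (-0.30, adjusted p = 0.0333) and without both arrays (-0.30, adjusted p = 0.0204). On the DREAM+/- background it passed without both arrays (-0.28, adjusted p = 0.0413).

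**Figure D4:**
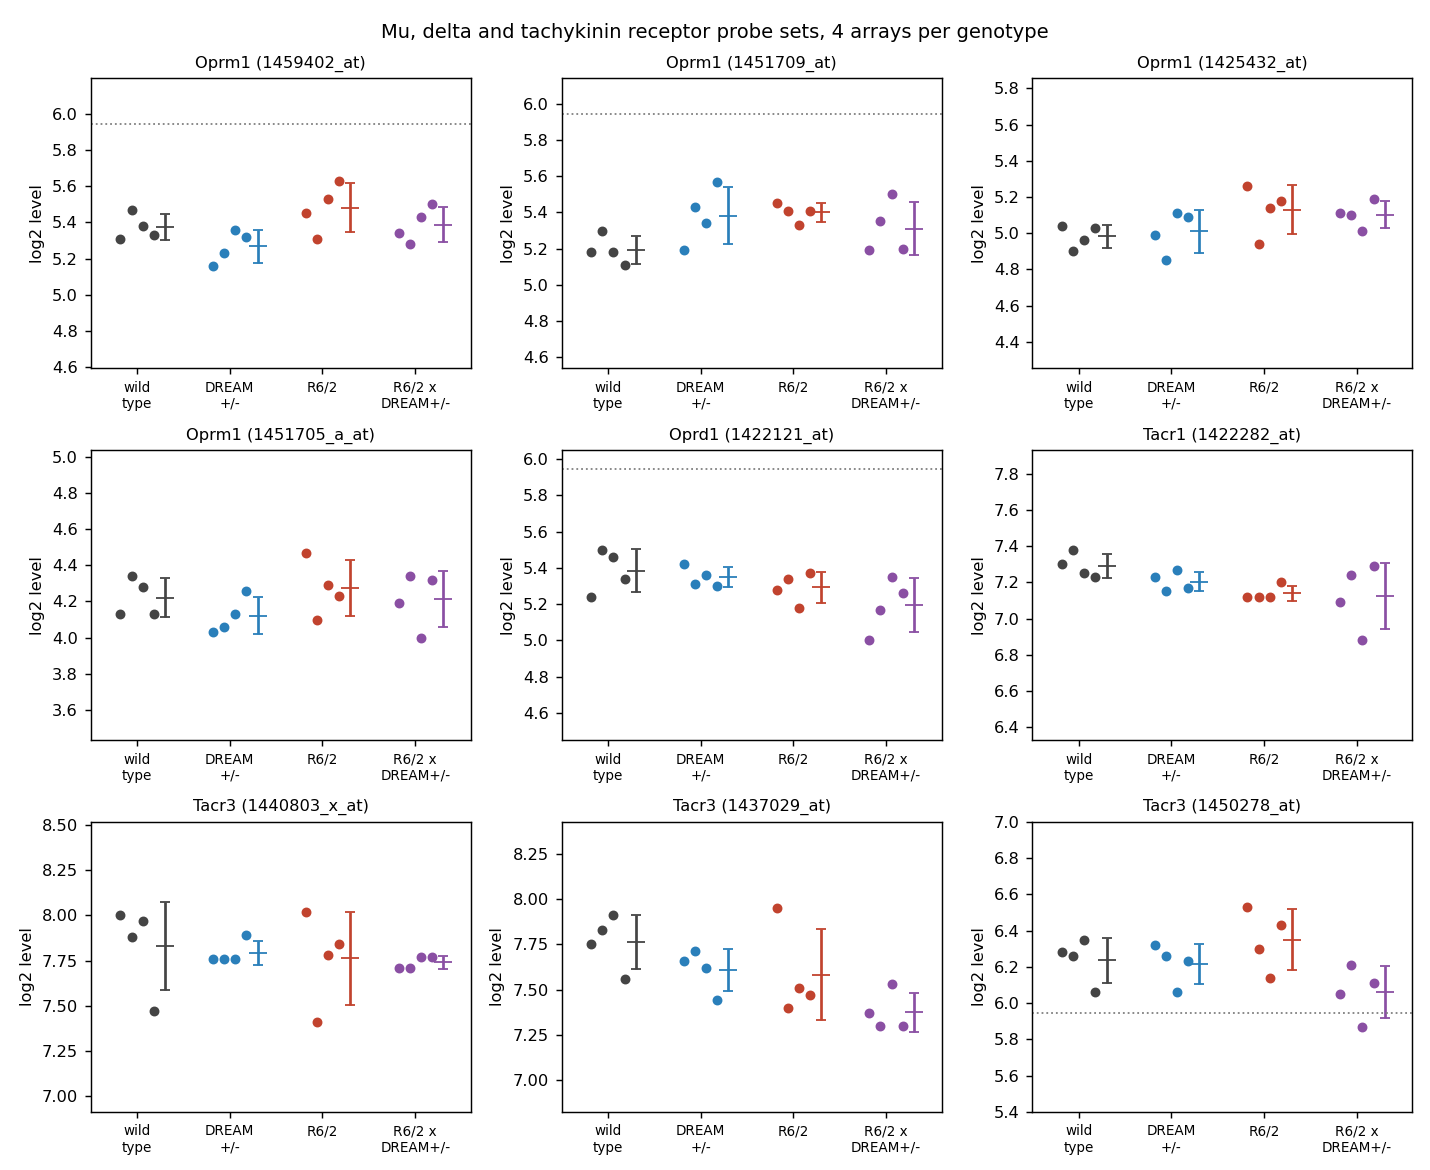
Log2 level of the probe sets of Oprm1, Oprd1, Tacr1 and Tacr3 in the 4 genotypes; points are arrays (n = 4), the bar mark is the mean ± SD, and the dotted line, where in range, is the brightness floor of 5.94. The Oprm1 and Oprd1 probe sets lie below the floor on every array, and of the tachykinin receptor probe sets only Tacr1 has R6/2 arrays all below the wild-type arrays.

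Averaged over both DREAM genotypes, 7 of 19 probe sets passed for the R6/2 effect, 3 higher and 4 lower (36.8%), and percent called over all probe sets was 19.8, with 10.6 higher and 9.23 lower. The lower ones were Penk, Pdyn, Pnoc (-0.29, limma adjusted p = 0.0123) and Oprk1 1446394_at (-0.58, adjusted p = 1.29e-05). The Pnoc call was lost with the mean of cortical markers as a covariate (-0.27, adjusted p = 0.0826). The higher ones were the 3 Oprl1 probe sets, at 0.25, 0.26 and 0.27 (adjusted p = 0.000383, 0.00125 and 0.0273 in the order given above). For Oprl1 1422099_a_at that call was lost in 7 of 25 alternatives, among them those without R6/2 x DREAM+/- replicate 1, 2 or 4, DREAM+/- replicate 1 or 4, or wild-type replicate 1 (0.24 to 0.26, adjusted p up to 0.0589).

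The second question was how loss of 1 copy of DREAM alters these genes. In DREAM+/- against wild type no probe set of the 19 passed with limma (5 had an unadjusted p under 0.05, as did 14.0% of all probe sets), and percent called over all probe sets was 2.26. In R6/2 x DREAM+/- against R6/2 none passed either (4 had an unadjusted p under 0.05, as did 23.3% of all), and percent called was 7.76. Groups did not overlap for 2 of 19 in the first comparison, 10.5% against 9.21% of all probe sets, and for 1 of 19 in the second, 5.26% against 12.8%. Averaged over R6/2 status, 2 of 19 passed, Pdyn lower and Oprk1 1451813_at higher (10.5%), and percent called was 13.1, with 5.59 higher and 7.55 lower.

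Pdyn was lower with DREAM+/- in both pairs of groups. The difference was -0.33 in DREAM+/- against wild type (95% interval -0.55 to -0.11, limma adjusted p = 0.119, groups not overlapping) and -0.34 in R6/2 x DREAM+/- against R6/2 (-0.56 to -0.12, adjusted p = 0.0533). The second passed in 8 of 27 alternatives, with adjusted p from 0.0221 to 0.227 over all 27, among them those without R6/2 x DREAM+/- replicate 3, R6/2 replicate 2 or DREAM+/- replicate 3 (-0.41 to -0.34). Averaged, Pdyn fell by 0.34 (-0.49 to -0.18, adjusted p = 0.00632), to 79.3%, and the call held in all 26 alternatives. Relative to Tac1 within each array the loss was 0.33 (exact permutation p = 0.000816, adjusted p = 0.00196). Relative to Penk, which differed by -0.05 in the averaged effect (adjusted p = 0.634), Pdyn was lower by 0.29 (exact permutation p = 0.00122, adjusted p = 0.00245). Relative to the medium spiny neuron marker mean it was lower by 0.27 (exact permutation p = 0.00286, adjusted p = 0.0049). Pdyn lies on the same chromosome as Kcnip3, with 27 protein-coding genes between them in the RefSeq order. Of the 100 nearest array genes to Kcnip3, 50 on each side and Pdyn among them, 15.0% passed for the averaged DREAM+/- effect. Before Kcnip3 4 genes were higher and 2 lower, and after it 2 were higher and 7 lower. Pdyn itself is among the genes counted as lower, and a difference between the sides was not tested. Of genes on other chromosomes 14.0% passed, 732 higher and 1397 lower. The part of the position of Pdyn in its change was not tested.

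Oprk1 was higher with DREAM+/- on 1 of its probe sets in the averaged effect. On 1451813_at the difference was 0.63 in DREAM+/- against wild type (limma adjusted p = 0.0624) and 0.52 in R6/2 x DREAM+/- against R6/2 (adjusted p = 0.0705), where no R6/2 array reached the lowest R6/2 x DREAM+/- array. The average was 0.58, or 149% (95% interval 0.32 to 0.83, adjusted p = 0.00457). Without wild-type replicate 3, the high wild-type array, the first difference was 0.87 and passed (adjusted p = 8.82e-05), and the second, 0.52, passed as well (adjusted p = 0.00248). On 1446394_at the difference was 0.34 in DREAM+/- against wild type (adjusted p = 0.0821, groups not overlapping), 0.04 in R6/2 x DREAM+/- against R6/2 (adjusted p = 0.851) and 0.19 on average (adjusted p = 0.0796). The first of these passed with array weights (0.35, adjusted p = 0.0364) and with only the groups compared (0.34, adjusted p = 0.0284), and the average passed without R6/2 x DREAM+/- replicate 4 (0.22, adjusted p = 0.0375). Penk, Pnoc, Tac1 and Oprl1 had no call in any DREAM+/- comparison. Tacr3 1450278_at differed by -0.29 in R6/2 x DREAM+/- against R6/2 (adjusted p = 0.0618), and passed without R6/2 replicate 3 (-0.36, adjusted p = 0.0312).

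**Figure D5:**
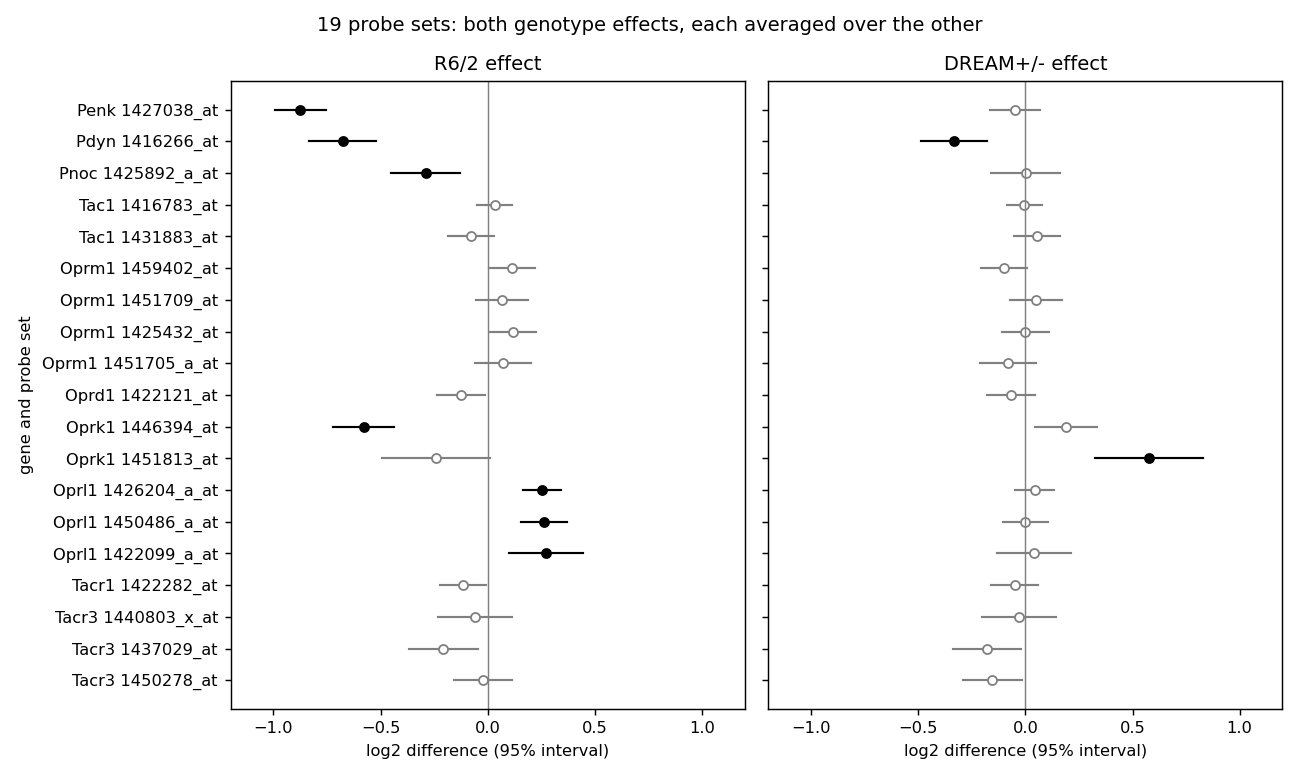
Log2 differences of the 19 probe sets for the R6/2 effect averaged over DREAM genotype (left), and for DREAM+/- averaged with and without the transgene (right), with 95% intervals; filled points passed at a limma adjusted p under 0.05 over all probe sets. On the left 7 points are filled, Penk lowest at -0.87, and on the right 2 are filled, Pdyn at -0.34 and Oprk1 1451813_at at 0.58.

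The interaction asks whether the R6/2 effect differs with DREAM genotype, and no probe set of the 19 passed it with limma (3 had an unadjusted p under 0.05). Over all probe sets percent called was 0.00, and 2121 (6.1%) had an unadjusted p under 0.05. Of the 3 members, Oprl1 1450486_a_at differed by -0.31, Oprm1 1451709_at by -0.28 (limma adjusted p = 0.806) and Oprk1 1446394_at by -0.30 (adjusted p = 0.817). For Penk the R6/2 effect was -0.90 without the DREAM deletion and -0.85 with DREAM+/-, and for Pdyn it was -0.67 and -0.68.

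The other genes of the family were read as well. Tac2, the neurokinin B precursor, averaged 6.70 ± 0.15 (log2, SD, n = 4) for wild type and 6.46 ± 0.10 for DREAM+/-. The R6/2 mean was 6.19 ± 0.27 and that of the cross 5.92 ± 0.20, just below the floor. The means followed the group order of Pdyn, but no DREAM+/- difference of Tac2 passed with limma. These were -0.24 against wild type (adjusted p = 0.394), -0.27 in R6/2 x DREAM+/- against R6/2 (adjusted p = 0.184) and -0.26 averaged (adjusted p = 0.0578). Tac2 fell by 0.50 in R6/2 against wild type (limma adjusted p = 0.0102) and by 0.54 on the DREAM+/- background (adjusted p = 0.0117). Tacr2, a neurokinin receptor, was below the floor and read 5.62 ± 0.09 in wild type and 5.84 ± 0.02 in R6/2, a difference of 0.22 (adjusted p = 0.023). Pomc and Tac4 passed in no comparison.

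Genes that process, degrade and transduce these peptides were counted on the brightest probe set per gene. Of 13 processing and storage genes, 4 were higher and 1 lower in R6/2 against wild type, where percent called was 15.7. Qpct, which forms the amino-terminal ring of peptides, was higher by 0.40 (limma adjusted p = 0.00233), and Chgb, a granule protein, was lower by 0.37 (adjusted p = 0.00169). On the DREAM+/- background 1 of 13 was higher, where percent called was 8.34. In DREAM+/- against wild type 1 of 13 was lower, where percent called was 2.10: Scg5, a chaperone of the prohormone convertase PC2, fell by 0.69 (adjusted p = 4.06e-05). In R6/2 x DREAM+/- against R6/2, 3 were lower (percent called 7.64), and averaged over R6/2 status 3 were lower (percent called 13.4), Scg5 by 0.59, Pcsk1n by 0.23 and Vgf by 0.26. Pcsk1n encodes a binding partner of the prohormone convertase PC1, and Scg5 also lies on the chromosome of Kcnip3, 163 coding genes away. Of 11 peptide-degrading enzymes, 1 was higher in R6/2 against wild type, Ece2 at 0.45 (adjusted p = 9.39e-05). Of 25 receptor signalling genes, 5 were lower and 2 higher in R6/2 against wild type, among them Rgs4, a brake on G protein signalling, at -1.02, and Gprasp1, which sorts opioid receptors for degradation, at 0.37 (adjusted p = 4.67e-05). On the DREAM+/- background 5 were lower and 1 higher. Of 11 genes of the DREAM family and peptide gene regulators, 4 were lower in R6/2 against wild type, Kcnip3 among them, and none was higher. In DREAM+/- against wild type 3 were lower, where percent called was 2.10: Kcnip3, Fosb by 0.625 and Junb by 0.71. Averaged over R6/2 status 5 were lower and 1 higher, Creb1 by 0.47, where percent called was 13.4.

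Over the 16 arrays, Penk and Pdyn levels correlated at 0.89 and, after removing group means, at 0.62. For Penk and Oprk1 1446394_at the values were 0.88 and 0.77, and for Penk and Oprl1 they were -0.85 and 0.06. The genes whose levels most resembled those of Penk over the 16 arrays were Pradc1 (Pearson r = 0.992), Ryr1 (0.991) and Rasgrp2 (0.990), among 13010 genes at or above the floor. For Pdyn they were St8sia2 (0.971), Naa40 (0.966) and Pde1b (0.950), and for Oprk1 Gask1b (0.951), Tpm1 (0.938) and C130030K03Rik (0.934). For Tac1, which differs little between genotypes, they were Casd1 (0.761), 9530082P21Rik (0.744) and Msto1 (0.737). For deviations from group means, the closest genes were Erich3 to Penk (0.948), Pde2a to Pdyn (0.875), Klhl13 to Tac1 (0.949) and Tpm1 to Oprk1 (0.889). These correlations are descriptions, since all genes of an array share its RNA.

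Cortical projection neuron markers moved with genotype. The mean of 9 cortical projection neuron markers lay between 7.80 and 8.02 in wild type, 7.84 and 8.03 in DREAM+/-, 7.25 and 7.69 in R6/2, and 7.77 and 8.06 in R6/2 x DREAM+/- (log2). In R6/2 against wild type 4 of the 9 were lower, where percent called was 15.7, and in R6/2 x DREAM+/- against DREAM+/- none passed. In R6/2 x DREAM+/- against R6/2, 5 of the 9 were higher (median of 0.33, percent called 7.64), and in DREAM+/- against wild type none passed. With that mean as a covariate, Penk (-0.91, limma adjusted p = 0.000596), Pdyn (-0.64, adjusted p = 0.029) and Oprl1 1450486_a_at (0.47, adjusted p = 0.0194) still passed in R6/2 against wild type. Oprk1 1446394_at (-0.46, adjusted p = 0.089) and the other 2 Oprl1 probe sets (0.27 and 0.26, adjusted p = 0.108 and 0.455) did not. R6/2 and wild-type arrays did not overlap on the marker mean, so cortical content and genotype cannot be told apart there. The Oprk1 difference was no smaller than without the covariate. For the averaged DREAM+/- effect, Pdyn (-0.35, adjusted p = 0.0305) and Oprk1 1451813_at (0.74, adjusted p = 0.00565) still passed with it. Of 9 markers of regions next to the striatum, 1 was lower in R6/2 x DREAM+/- against DREAM+/- (percent called 8.34). None passed in the other 3 pairwise comparisons. In the averaged DREAM+/- effect 1 was higher and 1 lower (percent called 13.4). Their mean lay between 7.98 and 8.24 in wild type and 7.73 and 8.55 in DREAM+/-. It lay between 7.28 and 8.24 in R6/2 and 8.01 and 8.53 in R6/2 x DREAM+/-. With such a spread, a missing call does not show equal content of these regions. The mean of 3 Y-linked genes lay between 5.47 and 6.80 in wild type, 6.54 and 6.91 in DREAM+/-, 5.60 and 7.63 in R6/2, and 5.33 and 6.40 in R6/2 x DREAM+/-. With that mean as a covariate, Pnoc (-0.40, adjusted p = 0.0744) and Oprl1 1426204_a_at (0.21, adjusted p = 0.0942) no longer passed in limma on the DREAM+/- background. Of 9 astrocyte markers 2 were lower and 1 higher in R6/2 against wild type, of 7 oligodendrocyte markers 3 were lower, and of 7 microglia markers none passed, where percent called was 15.7. Averaged over R6/2 status, 4 of the 7 microglia markers were higher and 1 lower with DREAM+/-, where percent called was 13.4. Of 13 striatal interneuron markers, 6 were lower in R6/2 against wild type (percent called 15.7) and 8 on the DREAM+/- background (percent called 8.34). Chat, a marker of cholinergic interneurons, read 4.90 to 5.23 and was below the floor. The part of interneurons in the changes of Pnoc and Tac2 was not tested.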

How the data were processed

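Striatal RNA of 4 genotypes, 4 samples each, was measured on 16 one-colour arrays. The authors deposited log2 values for 45101 probe sets. Per the submitters' processing notes the tools were RMA and affy (no version given). RMA sets arrays to a common distribution, so a change shared by most genes is not visible. Background correction and scan batch cannot be varied without scanner files, which were not used here. No source used here names the authors' genome build.

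Sample titles gave the groups and replicate numbers. The platform annotation paired 34945 probe sets with 1 symbol, 932 with several and 9160 with none, and 64 were controls. The 10 members, 15 gene lists (159 names, 148 on the array) and tests were chosen with earlier results of these data known. Counts over them and p-values for differences between genes within an array are therefore descriptions.

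The fit was limma 3.58.1 in R 4.3.3 (lmFit, eBayes) with 1 mean per genotype, all 16 arrays sharing 1 estimate of spread (12 residual degrees of freedom) and no brightness filter, giving the 4 pairwise contrasts, the interaction and 2 averaged effects. Adjustment was Benjamini-Hochberg over all 34945 probe sets. Differences between genes within an array were tested by exact permutation within the other genotype. Members were all named; other genes were named by the rule of up to 4 per list and comparison by unadjusted p, all 4 other family genes, and the 3 most like each of 5 members. Scg5 and Pdyn were compared with gene order around Kcnip3 after their values were seen. Replicate numbers were not taken as pairs in the main fit. Same-number arrays of different groups had correlations of deviations between -0.46 and 0.32 (median 0.05, 24 pairs). For different-number arrays these lay between -0.33 and 0.38 (median -0.007, 72 pairs). The values do not show a pairing and cannot exclude one. Simulated data with known changes were used to test the limma script. Alternatives were quantile normalization, a common median, a brightness filter, the brightest probe set, array weights, trended variance, covariates and leaving out arrays.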

Additional observations from a re-analysis of the deposited data

Results flagged for a closer look

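In 5 of 76 groups of 4 arrays, 1 array lay far from the other 3 by Dixon's ratio, and chance alone flags about 1 in 20 groups. Oprk1 1446394_at read 7.32 in wild-type replicate 1, where the others read 7.47 to 7.48. Oprk1 1451813_at read 7.75 in wild-type replicate 3 against 6.72 to 6.85, and Oprl1 1422099_a_at read 7.73 in R6/2 x DREAM+/- replicate 3 against 8.31 to 8.41. Tacr1 read 7.20 in R6/2 replicate 4 against 7.12 in each of the others, and Tacr3 1440803_x_at read 7.89 in DREAM+/- replicate 4 against 7.76 in each of the others.

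For Oprl1 1450486_a_at the DREAM+/- difference pointed in opposite directions with and without the transgene. Every DREAM+/- array lay above the wild-type mean of 8.46 and every R6/2 x DREAM+/- array below the R6/2 mean of 8.87, while single arrays of the groups overlapped in both pairs. The difference was 0.15 without R6/2 and -0.15 with it, a difference of -0.31, which did not pass the limma interaction test (adjusted p = 0.732).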

How the results depend on the processing

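Of 3429 recomputed values of single probe sets, 28 lost their call, 36 gained one, and no called value changed direction; 154 changed sign while passing in neither setting. For R6/2 against wild type, 6 probe sets passed, 3 with a cortical marker covariate and 5 to 7 on leaving out single arrays. For R6/2 x DREAM+/- against DREAM+/-, 5 passed, 3 with a Y-linked marker covariate and 3 to 6 on leaving out single arrays (3 without R6/2 x DREAM+/- replicate 1 or 2 or DREAM+/- replicate 1, 2 or 4). For DREAM+/- against wild type none passed; 1 did with quantile normalization, with only the groups compared and with the cortical covariate, 2 with array weights, and 0 to 1 on leaving out single arrays (1 without wild-type replicate 3). For R6/2 x DREAM+/- against R6/2 none passed; 1 did with the brightness filter, the brightest probe set, trended variance, only the groups compared, the Y-linked covariate and without both arrays apart, 2 with array weights, and 0 to 1 on leaving out single arrays (1 without R6/2 x DREAM+/- replicate 3, DREAM+/- replicate 3, R6/2 replicate 2 or 3, or wild-type replicate 3 or 4). The averaged DREAM+/- effect had 2 calls, 1 with the brightest probe set per gene (Oprk1 1451813_at is then not tested) and 2 to 3 on leaving out single arrays. The averaged R6/2 effect had 5 to 9 calls and the interaction 0 in all 26 alternatives.

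Of the ratios, Tac1 less the medium spiny neuron mean for DREAM+/- was 0.06 (adjusted p = 0.201) and did not pass. It passed without both arrays apart (0.10, adjusted p = 0.0193) and without R6/2 x DREAM+/- replicate 3 alone (0.0945, adjusted p = 0.00796), with 0.0401 to 0.0945 on leaving out single arrays. Pdyn less that mean for R6/2 was -0.150 to -0.0746 on leaving out single arrays, and without R6/2 x DREAM+/- replicate 4 it passed (adjusted p = 0.025). With the replicate number as a block, Pnoc on the DREAM+/- background was -0.41 (adjusted p = 0.0512, call lost) and Tacr3 1437029_at averaged -0.21 (adjusted p = 0.0442, call gained); counts of calls stayed within 1.5 times. Cause of each change was not tested. Arrays have no read depth; 4 per genotype and signal near background limit the dim probe sets.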
